A study of Mus musculus with 6 samples.

Results

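The Toll-like receptors (TLRs) of Peyer's patch B cells were examined through 10 genes among the 39179 gene identifiers of the RNA-Seq data. They comprised the receptors Tlr1, Tlr2, Tlr4, Tlr6, Tlr7 and Tlr9, the receptor-like Cd180 (RP105) with its partner Ly86 (MD-1), the chaperone Unc93b1, and the adaptor Myd88. The genes were chosen by name, and each symbol matched 1 identifier. GC B cells (Fas+GL7+) and resting, or naive, B cells (Fas-GL7-) had been sorted from Peyer's patches of the ileum of WT C57BL/6 female mice aged 12 weeks, and each population was measured in 3 pools of littermate mice. No treatment or mutation separated the populations. The comparison therefore asks how TLR gene expression differs between Peyer's patch B cells inside and outside the GC reaction. Exposure of either population to gut microbes was not measured. Because whole populations were sequenced, fewer cells that express a gene and less RNA per cell cannot be told apart.

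TLRs are membrane proteins that recognize conserved microbial molecules. Tlr2 pairs with Tlr1 or Tlr6 at the cell surface to bind bacterial lipoproteins, and Tlr4 binds lipopolysaccharide (LPS) there, together with the small protein Ly96 (MD-2). Tlr7 and Tlr9 bind single-stranded RNA and unmethylated CpG DNA in endosomes, which they reach only when carried by Unc93b1. Cd180 resembles Tlr4 but lacks a signaling domain, depends on Ly86 to reach the surface, and is a known regulator of LPS responses in B cells. All of the receptors above with a signaling domain use Myd88, which recruits IRAK kinases. In B cells, TLR signals act together with the B cell receptor and can promote proliferation and antibody secretion, and Tlr7 and Tlr9 are known for their part in responses to nucleic acids and in autoimmunity.

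Tlr1 and Tlr6 are neighbors on chromosome 5 (GRCm38.p6, minus strand), Tlr1 from 64924680 to 64933600 and Tlr6 from 64953092 to 64970942, with 19491 bases between them. They are near copies of each other in part of their coding sequence, so that short reads from it cannot be assigned to 1 gene with certainty. Of all 50-base words in the Tlr1 transcript (GENCODE M1, 2652 bases), 454 (17.4%) also occurred in the Tlr6 transcript (2603 bases), and no other member shared a 50-base word with another protein-coding gene. Their longest identical stretch has 229 bases and lies within the coding sequence of both, at bases 1468 to 1696 of the Tlr1 coding sequence and 1507 to 1735 of that of Tlr6. It is shown because Tlr1 and Tlr6 differed in opposite directions below.
Tlr1 and Tlr6, shared coding stretch: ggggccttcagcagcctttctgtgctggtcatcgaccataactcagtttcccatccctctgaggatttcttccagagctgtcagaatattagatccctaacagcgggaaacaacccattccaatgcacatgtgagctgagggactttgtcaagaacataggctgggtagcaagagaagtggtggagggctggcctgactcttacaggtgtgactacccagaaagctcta

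RefSeq promoter windows, from 250 bases before to 50 bases after an annotated start, are shown for these neighbors and for Tlr9, which was expressed alongside Tlr1 in both populations. Each is given 5′ to 3′ on the strand of its gene, in GRCm38.p6, at chr5:64933509-64933808 (minus strand) for Tlr1, chr5:64959999-64960298 (minus strand) for Tlr6 and chr9:106222348-106222647 (plus strand) for Tlr9. For Tlr1 and Tlr6, the start shown is the one farther upstream of those with a promoter window. The Tlr6 window lies inside the span of Tlr6 given above, whose upstream end is at 64970942. Capitals mark matches on either strand to the PU.1 core GAGGAA, the octamer ATGCAAAT bound by Oct factors, and the TATA box TATAAA, which were held by 28.3%, 1.74% and 13.6% of all 32851 promoter windows of this length. No matches overlapped in these 3 windows.
Tlr1 promoter: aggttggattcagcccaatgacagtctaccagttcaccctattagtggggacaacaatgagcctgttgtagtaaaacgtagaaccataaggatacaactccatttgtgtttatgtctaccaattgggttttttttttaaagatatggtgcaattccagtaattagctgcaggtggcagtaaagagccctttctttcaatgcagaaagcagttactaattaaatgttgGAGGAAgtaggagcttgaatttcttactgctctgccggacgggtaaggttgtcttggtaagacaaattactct
Tlr6 promoter: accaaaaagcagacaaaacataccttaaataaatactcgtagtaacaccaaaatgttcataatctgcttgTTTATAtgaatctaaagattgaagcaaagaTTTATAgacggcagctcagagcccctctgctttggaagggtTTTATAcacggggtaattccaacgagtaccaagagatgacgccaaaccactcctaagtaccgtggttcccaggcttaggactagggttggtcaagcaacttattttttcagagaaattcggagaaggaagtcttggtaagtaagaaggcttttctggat
Tlr9 promoter: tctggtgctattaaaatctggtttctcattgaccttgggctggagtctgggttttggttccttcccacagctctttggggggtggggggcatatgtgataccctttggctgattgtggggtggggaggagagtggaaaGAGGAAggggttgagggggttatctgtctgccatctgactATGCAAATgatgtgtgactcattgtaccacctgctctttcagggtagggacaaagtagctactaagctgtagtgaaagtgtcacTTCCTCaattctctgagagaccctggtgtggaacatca
The Tlr1 window held 1 PU.1 core, starting 23 bases before the start site, and the Tlr6 window held 3 TATA boxes on the opposite strand. The Tlr9 window held 2 PU.1 cores and an octamer, starting 72 bases before the start site, the only octamer in the 10 windows listed for members. Tlr4, Tlr7 and Unc93b1 had no entry. A match is only a match of letters.

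The files hold 1 FPKM value per gene and pool, here rescaled to TPM, in which each pool sums to 1000000. From the steps between low values, where the smallest step is worth 1 read, depth was estimated at 9760000 to 16340000 reads per pool. GC marker genes matched the labels. The 6 of them summed to between 1410 and 1438 TPM in GC pools and between 51.6 and 57.5 TPM in naive pools. Because myeloid and epithelial cells also express TLRs, their markers were read beside the results. The 8 macrophage and monocyte markers summed to between 14.5 and 16.1 TPM in GC and between 9.77 and 15.5 TPM in naive pools, with Fcgr1 listed at 0 in every pool. Most of the GC sum was Cd68, and the 7 markers without it summed to between 1.16 and 2.93 TPM in GC and between 4.80 and 8.51 TPM in naive pools. The 7 epithelial markers summed to between 37.0 and 71.0 TPM in GC and between 110.4 and 139 TPM in naive pools. These higher sums in naive pools run in the same direction as most results below, and their part in them was not tested. The 6 dendritic cell markers summed to between 31.5 and 35.2 TPM in GC and between 2.24 and 3.40 TPM in naive pools. Flt3 made up almost all of the GC sum, with a mean of 31.4 TPM, and had a mean of 1.24 TPM in naive pools. The 5 T cell markers summed to at most 3.51 TPM in any pool, and the 4 plasma cell markers to between 766 and 801 TPM in GC and between 139.98 and 173 TPM in naive pools. Jchain supplied most of that GC sum, averaging 669 TPM there but only 33.3 TPM among naive B cells. Prdm1 was likewise called higher in GC, whereas Sdc1 and Xbp1 were both called lower.

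TLR genes were mostly lower in GC than in naive B cells. All 10 members passed the filter of at least 1 TPM in at least 3 pools, and 8 of them were lower in GC at an adjusted p under 0.05 (limma on log2(TPM + 1), Benjamini-Hochberg over 12785 genes), where 30.1% of all genes tested were lower. Tlr6 alone was higher, against 35.5% of all genes, and Myd88 was not called. Calls in either direction covered 65.6% of all genes, so that a call by itself says little. By size, 7 of the 10 had a log2 difference of -1 or less with a call, against 11.2% of all genes. Tlr2 and Tlr7 passed the filter only through their naive pools and so had to differ. Among the other 8 members, 6 were lower and 5 had a log2 difference of -1 or less. The median log2 difference was -1.20 over the 10 members, -1.14 over those 8, and 0.03 over all genes tested.

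**Figure D1:**
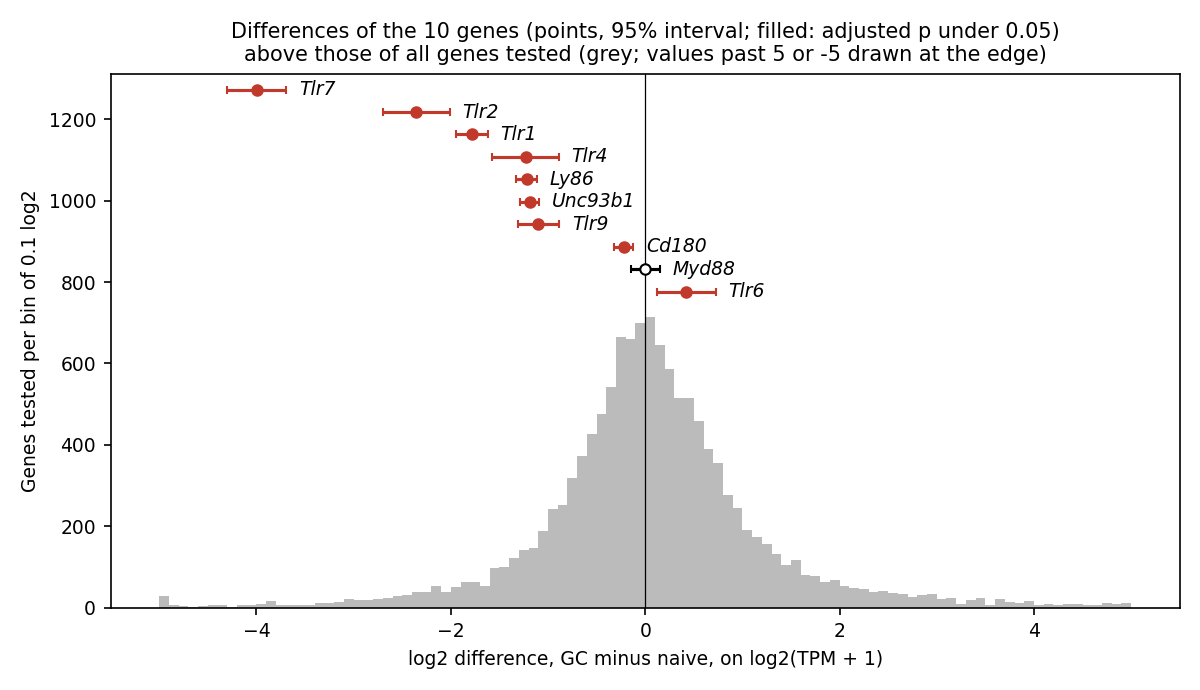
log2 difference (GC minus naive, on the log2(TPM + 1) scale) of the 10 genes as points with 95% intervals, drawn above the histogram of all 12785 genes tested. Of the members, 7 lie at -1 or below, from Tlr7 at -4.00 to Tlr9 at -1.10, while Cd180, Myd88 and Tlr6 lie near the middle of all genes.

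Tlr7, the endosomal receptor for single-stranded RNA (ENSMUSG00000044583; chromosome X, 167303380 to 167330574), differed most. GC replicates 1, 2 and 3 held 0.675, 0.388 and 0.753 TPM of it, and naive replicates 1, 2 and 3 held 24.0, 26.2 and 23.4 TPM. Every GC pool was below 1 TPM, and every naive pool was far above them, so the populations did not overlap. The GC mean of 0.605 ± 0.192 TPM compared with a naive mean of 24.5 ± 1.48 TPM (SD, n = 3 each), a ratio of 40.5, and the log2 difference was -4.00 ± 0.13 (SE; limma, adjusted p = 1.09e-06). Only 0.602% of the genes tested had a lower difference. Tlr7 passed the filter only through its naive pools and so had to differ, so this p-value and rank are no further support. The pseudocount, the 1 TPM added before the log, compressed the log2 difference of Tlr7. It was -5.37 with a pseudocount of 0.01 TPM. The GC values rest on roughly 20, 10 and 20 reads, against 657 to 1163 in the naive pools. Per read sequenced this is a ratio of 42.9, with a 95% interval of 32.4 to 58.0 that covers counting error only.

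Tlr9, the receptor for CpG DNA whose promoter is given above (ENSMUSG00000045322; chromosome 9, 106222598 to 106226876), was lower in GC B cells but remained well expressed. In pool order, GC B cells had 40.1, 40.7 and 42.4 TPM, and naive B cells had 94.7, 95.8 and 77.9 TPM. The lowest naive pool, replicate 3, was still above every GC pool. The means were 41.1 ± 1.19 TPM and 89.5 ± 10.03 TPM (SD, n = 3 each), and the log2 difference was -1.10 ± 0.09 (SE; limma, adjusted p = 6.92e-05). Tlr7 and Tlr9 share a chaperone and a compartment, and their ratio within pools is taken up below.

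Unc93b1, the chaperone that carries Tlr7, Tlr9 and other receptors to endosomes (ENSMUSG00000036908; chromosome 19, 3935158 to 3949340), was the most abundant transcript of the members in both populations. Its GC pools had 317, 327 and 327 TPM and its naive pools 716, 767 and 735 TPM, without overlap. The log2 difference was -1.19 ± 0.04 (SE; limma, adjusted p = 1.34e-06), and naive B cells held 2.28 times the GC level. Even the GC level was above that of 96.9% of the genes tested.

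The surface receptors for bacterial lipoproteins did not move together. For Tlr1 (ENSMUSG00000044827), the GC pools had 40.6, 39.2 and 44.0 TPM and the naive pools 149, 149.8 and 135 TPM. The populations were clearly separated, with a log2 difference of -1.79 ± 0.07 (SE; limma, adjusted p = 2.25e-06) and 3.51 times as much in naive B cells. Tlr6 (ENSMUSG00000051498), its near copy, had 8.31, 9.91 and 8.86 TPM in GC and 6.37, 5.68 and 7.41 TPM in naive pools. The groups did not overlap, but the gap was narrow, and the log2 difference was 0.42 ± 0.12 (SE; limma, adjusted p = 0.0217). This call was lost without any of 4 pools, since the adjusted p in limma was 0.0714 without GC replicate 2, 0.0523 without GC replicate 3, 0.0591 without naive replicate 1 and 0.0646 without naive replicate 2. It held without GC replicate 1 (0.0336) and without naive replicate 3 (0.0133). The authors' quantification divided the reads from the stretch printed above between both genes, and how it did so cannot be seen in the deposited values, so the level of Tlr6 in particular is uncertain.

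Tlr2, the common partner of Tlr1 and Tlr6 (ENSMUSG00000027995; chromosome 3, 83836272 to 83841824), was low in naive and close to 0 in GC B cells. The GC pools had 0.179, 0.0969 and 0.0976 TPM, and the naive pools had 5.35, 4.97 and 4.002 TPM. Naive B cells therefore held far less Tlr2 than Tlr1, and GC B cells held almost none. The log2 difference was -2.35 ± 0.14 (SE; limma, adjusted p = 1.77e-05). Like Tlr7, Tlr2 passed the filter only through its naive pools, so this p-value is no further support. The GC values correspond to about 4, 2 and 2 reads, which gives a ratio per read of 39.9 with a 95% interval of 20.0 to 93.0 from counting error. The pseudocount compressed this difference, which reached -5.20 with a pseudocount of 0.01 TPM. Tlr2 is also a gene of myeloid cells. Of the 8 macrophage and monocyte markers, Lyz2, Adgre1 and Itgam were higher in every naive than in every GC pool, Csf1r, C1qa and C1qb overlapped, Fcgr1 was at 0, and Cd68 was higher in GC (13.1 against 5.88 TPM on average, log2 difference 1.04). Lyz2, with means of 1.28 TPM (GC) and 3.30 TPM (naive), was not called (limma, adjusted p = 0.0618). Adgre1 and Itgam were at 0.633 to 0.794 TPM and 0.891 to 1.23 TPM in the naive pools, against at most 0.138 and 0.166 TPM in the GC pools, and the part of these markers in the Tlr2 result was not tested.

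Tlr4, the LPS receptor (ENSMUSG00000039005; chromosome 4, 66827551 to 66846581), was also weakly expressed. Its 3 GC pools had 2.33, 2.26 and 2.54 TPM, and its 3 naive pools had 7.30, 7.95 and 5.65 TPM. Naive B cells held 2.94 times the GC level without overlap, and the log2 difference was -1.23 ± 0.14 (SE; limma, adjusted p = 0.000355). Cd14, an LPS coreceptor expressed by monocytes and macrophages, was listed at 0 in 5 pools and at 0.194 TPM in naive replicate 3. Cd14 alone does not stand for the myeloid markers given for Tlr2 above. Of those, Lyz2, Adgre1 and Itgam were higher in naive pools, Cd68 was higher in GC pools, and the rest overlapped or were at 0. The epithelial markers also had a higher sum in naive pools. The part of all these markers in the Tlr4 result was not tested.

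**Figure D2:**
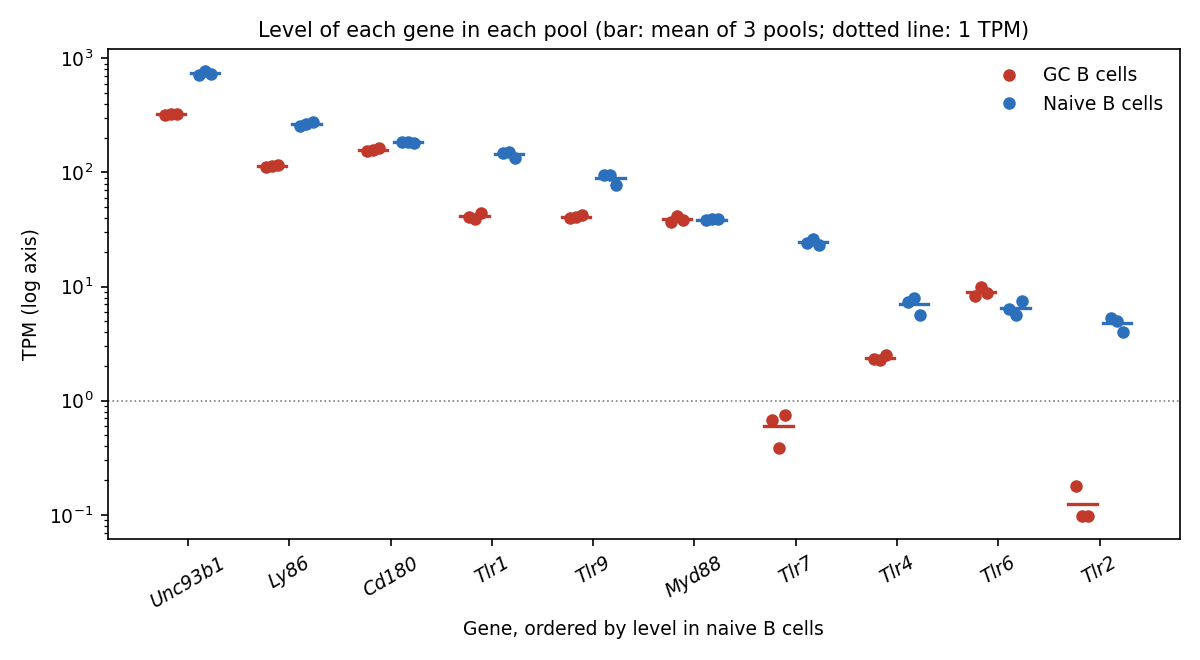
Level of each gene in each of the 3 GC and 3 naive pools, in TPM on a log axis, with bars for the means. Tlr7 and Tlr2 fall below 1 TPM in every GC pool, Myd88 overlaps between populations, and Tlr6 is the one gene with GC pools above naive pools.

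Cd180 and Ly86, whose products form 1 complex, were both lower in GC, Ly86 by more. Cd180 (ENSMUSG00000021624; chromosome 13, 102693547 to 102706631) had 153, 156 and 163 TPM in GC and 184, 187 and 181 TPM in naive pools. This is a small difference of -0.22 ± 0.04 on the log2 scale (SE; limma, adjusted p = 0.00310), although pools varied so little that the groups did not overlap. Ly86 (ENSMUSG00000021423; chromosome 13, 37345345 to 37419036) had 112, 114 and 116 TPM in GC and 256, 265 and 277 TPM in naive pools. Its log2 difference was -1.22 ± 0.04 (SE; limma, adjusted p = 1.89e-06), close to that of Unc93b1. GC B cells held 0.857 of the naive level of Cd180 and 0.428 of that of Ly86.

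Myd88, the adaptor that all of these receptors except Cd180 use (ENSMUSG00000032508; chromosome 9, 119335934 to 119340018), showed no detectable difference. The GC pools had 36.6, 41.3 and 38.4 TPM, and the naive pools, with 38.1, 39.1 and 38.8 TPM, all lay within the range of the GC pools. The log2 difference was 0.00 with a 95% interval of -0.15 to 0.15 (limma, adjusted p = 0.983), which bounds the differences that these pools leave possible. Of the 10 members, 9 had no overlap between populations, against 70.7% of all genes tested, and Myd88 was the exception. Without Tlr2 and Tlr7, the count was 7 of 8.

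Since TPM is per transcript length, levels can be set side by side between genes. In naive B cells the order ran from Unc93b1 (mean 739 TPM) through Ly86, Cd180, Tlr1, Tlr9, Myd88 and Tlr7 to Tlr4, Tlr6 and Tlr2 (4.77 TPM). In that order only Tlr4 and Tlr6 overlapped between neighbors. In GC B cells the order was Unc93b1 (324 TPM), Cd180, Ly86, Tlr1, Tlr9, Myd88, Tlr6, Tlr4, Tlr7 and Tlr2 (0.125 TPM), and Tlr1, Tlr9 and Myd88 overlapped as neighbors, between 36.6 and 44.0 TPM. Ly86 and Cd180 exchanged places, and Tlr7 moved from the seventh to the ninth place, behind Tlr6 and Tlr4. Replicates were close for the abundant members, with coefficients of variation of 1.68% in GC and 3.44% in naive B cells for Unc93b1, and spread more for the scarce ones, up to 38.0% for Tlr2 in GC.

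Ratios of 2 members within a pool do not depend on how the pools were scaled, so they measure directly whether genes differed by unequal amounts. An exact permutation test of 3 against 3 pools cannot give a p below 0.1. The ratio of Tlr9 to Tlr7 was 59.4, 105.1 and 56.4 in the GC pools and 3.94, 3.66 and 3.33 in the naive pools, which is 19.4 times higher in GC (two-sided exact permutation test, p = 0.1). The ratio of Unc93b1 to Tlr7 was 18.5 times higher in GC, also without overlap (exact permutation p = 0.1). The proportion of Unc93b1 to Tlr9, by contrast, did not separate the populations. It was 7.91, 8.03 and 7.71 in GC and 7.57, 7.998 and 9.44 in naive pools, with overlap (exact permutation p = 0.8). The ratio of Tlr9 to Myd88 was near 1 in GC, at 1.10, 0.987 and 1.10, and between 2.01 and 2.48 in naive pools (exact permutation p = 0.1).

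The surface complexes gave the same kind of contrast. Ly86 to Cd180 was 0.729, 0.728 and 0.712 in the GC pools and 1.40, 1.42 and 1.53 in the naive pools, so that the gene in excess was Cd180 in every GC pool and Ly86 in every naive pool (exact permutation p = 0.1). Tlr1 exceeded Tlr6 by 3.95 to 4.96 times in GC and by 18.2 to 26.4 times in naive pools, a ratio that depends on how shared reads were divided (exact permutation p = 0.1). Tlr1 exceeded Tlr2 by 27.9 to 33.7 times in naive and by 227 to 451 times in GC pools, where Tlr2 rests on a few reads (exact permutation p = 0.1). Adjusted over the 7 ratios, the exact permutation p was 0.117 for the 6 that did not overlap and 0.8 for Unc93b1 to Tlr9. Among these 6 are the ratios to Tlr7 and to Tlr2, which passed the filter only through their naive pools. The separation of those ratios is therefore no further support. The other ratios recombine values of genes already compared above, so their separation is not independent support either.

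**Figure D3:**
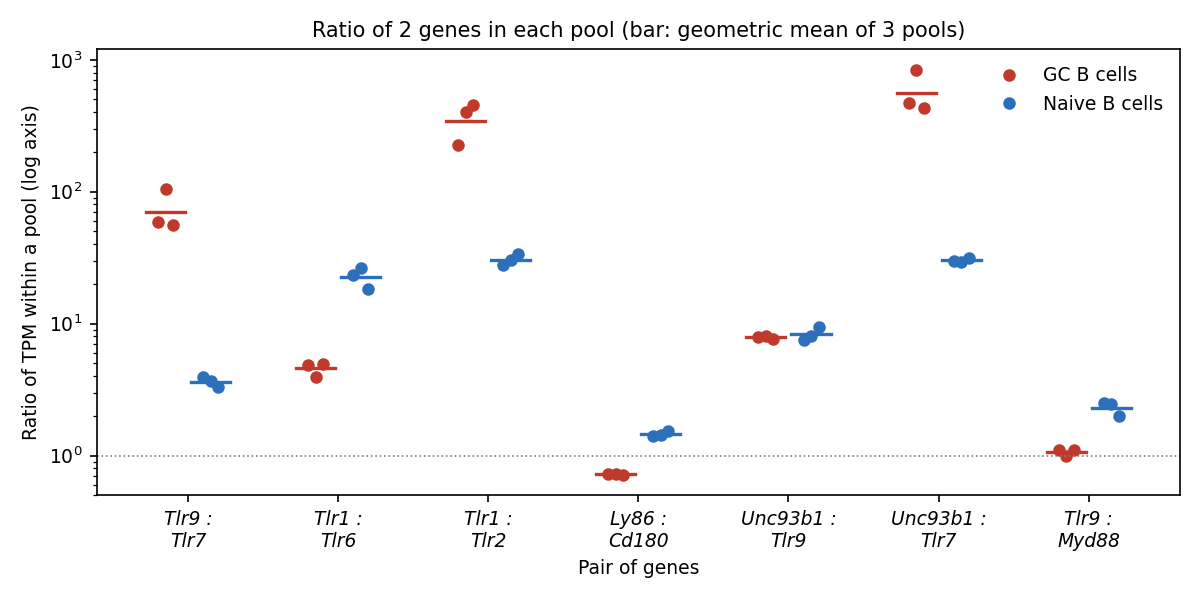
Ratio of TPM between 2 genes in each pool, on a log axis, with bars for the geometric means of 3 pools. Unc93b1 to Tlr9 is the one pair whose GC and naive pools overlap, and Ly86 to Cd180 lies below 1 in GC and above 1 in naive pools.

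The other mouse TLR genes were scarce. Tlr3, an endosomal receptor for double-stranded RNA, was at 0.937, 1.12 and 0.808 TPM in GC and at 2.01, 1.45 and 1.87 TPM in naive pools. Its log2 difference of -0.50 had an adjusted p of 0.0212 in limma, but this call did not hold without GC replicate 1 (0.0522), GC replicate 3 (0.0605), naive replicate 1 (0.0746) or naive replicate 3 (0.0599). Both passed the filter through their naive pools. Tlr12 ranged from 0.637 to 1.21 TPM in GC and from 1.38 to 2.59 TPM in naive pools, with a log2 difference of -0.55 (limma, adjusted p = 0.0581). Tlr5, Tlr8, Tlr11 and Tlr13 did not pass the filter. Tlr11 was listed at 0 in every pool, and the other 3 reached at most 0.138 TPM, for Tlr5 in GC replicate 2. Among TLRs proper, these B cells therefore expressed mainly Tlr1 and Tlr9, together with Tlr7 in naive B cells.

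Genes that serve the receptors were examined in lists by function, which were chosen with earlier results of these data known. Of 53 tested genes in all 8 lists, 25 were lower and 11 were higher in GC in the same limma fit, and their median log2 difference was -0.28, against 0.03 over all genes tested. The tested genes include Irak3, Ctsl, Tlr3 and Tlr12, which passed the filter through their naive pools, and Il1r2, which passed through its GC pools. Counts and the median were not taken without them. The 36 calls are 67.9% of the genes tested, near the 65.6% of all genes, and the counts by list are to be read against the 30.1% of all genes that were lower and the 35.5% that were higher. Among coreceptors, chaperones and trafficking factors (11 listed, 8 tested), 3 were lower and 3 were higher. The scavenger receptor Cd36, a coreceptor of Tlr2 with Tlr6, was lower, at 1.22 ± 0.125 TPM in GC and 9.19 ± 0.698 TPM in naive pools (SD, n = 3). This is a difference of -2.20 on log2(TPM + 1). The endoplasmic reticulum chaperone Hsp90b1 (gp96) and its cochaperone Cnpy3, both needed to fold TLRs, were also lower, with log2 differences of -0.92 and -0.79. Ly96, the partner of Tlr4, went the other way, at 10.05, 11.4 and 12.8 TPM in GC and 2.96, 3.78 and 6.24 TPM in naive pools (log2 difference 1.26). Cnpy4 and Ap3b1, a subunit of the AP-3 sorting complex, were higher with log2 differences of 0.49 and 0.37.

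Of the adaptors other than Myd88, 4 were tested, and 3 were higher and 1 was lower, too few genes to set against the shares of all genes. Ticam2 (TRAM), which links Tlr4 to the adaptor Ticam1 (TRIF), was at 20.5, 17.6 and 18.6 TPM in GC and 4.47, 3.18 and 4.80 TPM in naive pools (log2 difference 1.96). Tirap, which bridges Tlr2 and Tlr4 to Myd88, was 2.19 times higher in GC (log2 difference 1.05), and Pik3ap1 (BCAP), a B cell adaptor that couples TLRs to phosphoinositide 3-kinase, was 1.30 times higher. Ticam1 itself was lower, with a log2 difference of -0.58. The bridging adaptors of Tlr4 and its partner Ly96 were thus higher in the population where Tlr4 itself was lower.

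Among kinases and ubiquitin enzymes, 7 of 16 were lower, 1 was higher and 8 were not called, so that fewer of them were called than the 65.6% of all genes. Irak2, a kinase of the Myd88 complex, fell by 2.58 on the log2 scale, from 64.1 ± 4.78 to 9.93 ± 1.39 TPM (SD, n = 3). Ikbkb, the IKKβ kinase that activates NF-κB, fell by 1.21, and Irak4, Tbk1 and Chuk fell by 0.56, 0.50 and 0.48. Traf3 counts among the 7, but its pools overlapped, and its adjusted p in limma was 0.0453, against 0.0767 with no filter, 0.0586 without a variance trend, 0.104 without GC replicate 1, 0.0849 without GC replicate 2, 0.120 without naive replicate 1 and 0.129 without naive replicate 2. Ube2n, the ubiquitin-conjugating enzyme that works with Traf6, was the 1 gene of the list that rose (log2 difference 1.09), while Traf6 had a log2 difference of -0.11 and was not called. Of the interferon regulatory factors, Irf1 (log2 difference -1.49), Irf3 (-0.70) and Irf5 (-0.65) were lower, and Irf7 and Irf8 were not called.

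Of 8 negative regulators tested, 3 were lower and 3 were higher, shares near those of all genes (30.1% and 35.5%). Irak3 (IRAK-M), which restrains signaling from the Myd88 complex, was at 0.799, 0.927 and 0.906 TPM in GC and at 26.3, 27.1 and 26.4 TPM in naive pools. Every GC pool was below 1 TPM, so like Tlr7 it passed the filter only through naive pools. Its log2 difference was -3.88, compressed by the pseudocount, for a ratio of naive to GC means of 30.3. Sigirr and Tank were lower as well, with log2 differences of -1.02 and -0.47. Dusp1, a phosphatase of MAP kinases, Socs1, an inhibitor of cytokine signaling, and the deubiquitinase Cyld were higher, with log2 differences of 2.03, 1.20 and 0.47.

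Enzymes that cut the receptors or their nucleic acid ligands were lower where called, with 6 of 8 tested genes lower (against 30.1% of all genes) and none higher. Dnase2a, a lysosomal DNase, fell by 1.74 on the log2 scale, Pld3 and Pld4, exonucleases of endosomes, fell by 1.50 and 1.30, and the protease Ctss (cathepsin S) fell by 1.65. Ctsl and Ctsb fell by 0.64 and 0.61, and Ctsl passed the filter only through its naive pools, like Il1r2 below through its GC pools. Lgmn, another endosomal protease, was at 107 to 113 TPM in GC and 106 to 111 TPM in naive pools and was not called. In the family of interleukin 1 receptors, which also use Myd88, 2 of 6 genes passed the filter. Il1r2, a decoy receptor without a signaling domain, was higher in GC (3.34 ± 0.942 against 0.211 ± 0.0907 TPM; SD, n = 3), and the coreceptor Il1rap was lower (log2 difference -0.88).

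**Figure D4:**
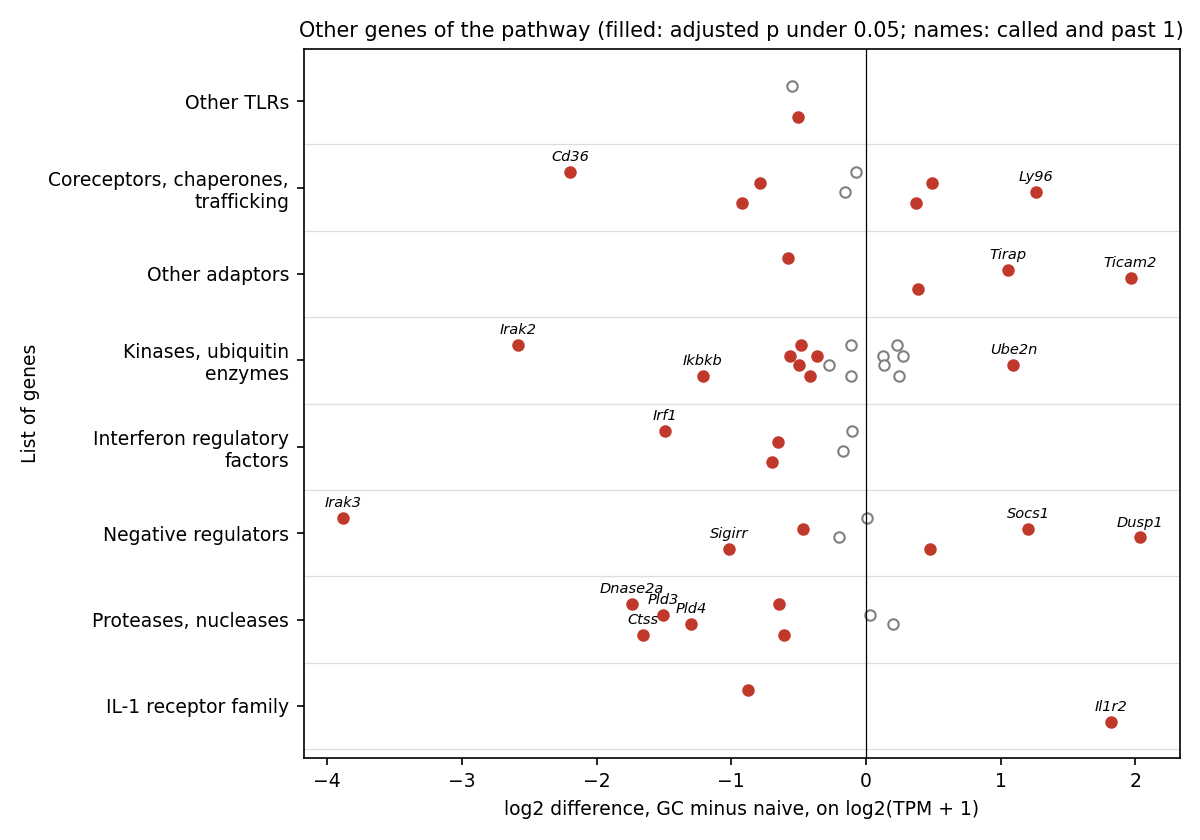
log2 difference (GC minus naive) of the other pathway genes that passed the filter, 1 point per gene and 1 row per list. Filled points were called and open points were not; named genes were called and differed by 1 or more, from Irak3 at -3.88 to Dusp1 at 2.03.

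Genes with the most similar levels across the 6 pools were sought for Tlr7, Tlr9 and Cd180, by the root mean square difference of log2(TPM + 1) over 10951 other protein-coding genes. Nearest to Tlr7 were Bcl2 (0.200), Gdf11 (0.205) and Fcgrt (0.209), all at or below 0.776 TPM on average in GC and between 26.7 and 28.5 TPM in naive B cells. Nearest to Tlr9 were Glt25d1 (0.0964), Slc35c2 (0.0984) and Snx9 (0.103). Nearest to Cd180 were Smap2 (0.0426), ORF61 (0.0588) and Cd82 (0.0777). These are likenesses of level over 2 populations, which many genes can share.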

How the data were processed

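Adapters were removed from the reads with cutadapt 1.9, and the authors quantified them on the mouse transcriptome (NCBIm38 v75, the assembly of the RefSeq positions used here) with RSEM 1.2.25. The deposited FPKM values, with 2 decimals, are fragments scaled to transcript length and to mapped fragments per pool. The submitters' processing notes also list edgeR, with no role given, so whether the values were scaled between pools is not known. They hold no counts, and depth was therefore estimated from FPKM steps (80.8% to 85.2% of low values within 0.15 reads of a whole number). Each FPKM value was then scaled so that its pool summed to 1000000 (TPM).

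Symbols were matched for 33398 of 39179 identifiers. On log2(TPM + 1), limma 3.58.1 under R 4.3.3 tested GC against naive pools (two-sided, trended eBayes) where a gene reached 1 TPM in 3 or more pools. The pseudocount understates changes of low genes. Ratios used two-sided exact permutation tests in scipy 1.17.1. Each replicate is a pool of mice, so p-values set differences against the spread between pools, not between mice. In limma, the spread of each gene was moderated by a trend over all genes. The fit was tested on simulated data with known changes. Members and lists were chosen with earlier results of these data known. Named genes were all members, every other TLR, and up to 6 called genes per list with the largest differences; Cd14, Lgmn, Traf3, Traf6, Irf7 and Irf8 were added after their values were seen. Of the listed genes, Rnaset2a and Rnaset2b had no value, and 2 marker lists are not reported here. Alternatives covered pseudocounts, filters, scaling, the variance model, the replicate block and each pool left out.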

Additional observations from a re-analysis of the deposited data

How the results depend on the processing

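Over 15 alternatives the 8 members lower in GC kept their direction and their call, except that Tlr2 was not tested with a filter of 5 TPM. Log2 differences ranged from -1.89 to -1.75 for Tlr1, -5.20 to -2.06 for Tlr2, -1.54 to -1.14 for Tlr4, -5.37 to -3.76 for Tlr7, -1.22 to -1.05 for Tlr9, -0.35 to -0.20 for Cd180, -1.33 to -1.19 for Ly86 and -1.29 to -1.16 for Unc93b1. Myd88 was called in none (limma, adjusted p between 0.266 and 0.985), and its log2 difference lay between -0.09 and 0.04. Tlr6 stayed higher in GC (0.35 to 0.51), but the count of members called higher fell from 1 to 0 under quantile normalization (adjusted p = 0.0516 in limma) and with the replicate block (0.0535), and was 0 to 1 when single pools were left out. Among the other TLRs, where 1 gene was called, 0 were called with a filter of 5 TPM or with the replicate block, 2 with FPKM as deposited, with quantile normalization or without a variance trend, and 0 to 1 without single pools. With a filter of 5 TPM, 0 interleukin 1 receptor genes were left, against 2. The log2 ratio of Unc93b1 to Tlr9 (GC minus naive, -0.07) ranged from -0.14 to 0.019 when single pools were left out, and changed sign without naive replicate 3. Quantile normalization moved the median log2 difference of all genes by -0.09. Whether the numbers 1 to 3 pair the pools is not known. Deviations of same-numbered pools correlated with r between 0.0225 and 0.0830 across genes, and those of other pairs with r between -0.0746 and 0.0298. These weak correlations cannot decide it. The block called 7960 genes, against 8392. With the block the calls of Tlr3 (adjusted p = 0.0620 in limma) and Traf3 (0.0854) were also lost. The cause of these changes was not tested. Depth limits Tlr2 and Tlr7 in GC B cells, which rest on 8 and 50 reads in all 3 pools together.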
